A study of Mus musculus with 8 samples.

Results

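Apolipoproteins are the protein part of the particles that carry fat and cholesterol in blood, and the liver makes most of them. The 10 genes described here are Apoa1, Apoa2, Apoa4, Apoa5, Apob, Apoc1, Apoc2, Apoc3, Apoe and Apoh, chosen by name for their function out of 21728 protein-coding genes, with earlier results of these data known. Chromatin accessibility at them was compared between adult liver of control mice (4 libraries) and of Alb-D2KO mice (4 libraries), all C57BL/6. In Alb-D2KO mice the albumin promoter drives Cre recombinase in hepatocytes and inactivates Dio2, the gene of the deiodinase that makes the thyroid hormone T3 from T4. The titles of the control libraries carry the word cre, and for its adult liver expression data the study describes the controls as Cre-expressing littermates. ATAC-seq, in which a transposase cuts open DNA and leaves sequencing adapters there, was done on 50000 nuclei of frozen whole liver per library, so nuclei of cells other than hepatocytes are included. The authors called open regions once per genotype on the pooled libraries and kept those of one genotype that overlapped none of the other. This left 8031 regions that were called in the control pool alone, which are areas of reduced chromatin accessibility (RCAs), and 250 regions open only in Alb-D2KO liver. No library has a value of its own in these lists and no read counts are given, so the values below have no replicate error, no test between the groups was possible and the depth is unknown. The area of a region is the significance that the peak caller summed over it from the −log10 p curve. Its smallest listed value is 200.004. How much of that curve the area counts is not stated, and areas can be compared within a list only.

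Lipoprotein particles are built around Apob, which stays with very-low-density and low-density lipoprotein for the life of the particle, or around Apoa1, the main protein of high-density lipoprotein. The smaller apolipoproteins exchange between particles and decide how fast triglyceride is removed: Apoc2 switches on lipoprotein lipase, Apoc3 and Apoc1 restrain it, and Apoa5 favours lipolysis. Apoe is the ligand through which the liver takes remnant particles back up. Thyroid hormone is a known regulator of hepatic lipoprotein production and clearance. Of the 10 genes, 4 stand together on chromosome 9 (Apoa1, Apoc3, Apoa4 and Apoa5) and 3 on chromosome 7 (Apoc2, Apoc1 and Apoe), while Apoa2, Apob and Apoh each lie alone.

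All 10 apolipoprotein genes had at least 2 RCAs within 10 kb, measured from the edges of the gene. The same search over all protein-coding genes found at least 1 RCA near 25.2% and at least 2 near 9.14%. In all, 23 RCAs lay near the 10 genes, 8 of them on chromosome 9, 7 on chromosome 7, 4 at Apoh, 2 at Apoa2 and 2 at Apob. Because neighbouring genes share regions, 13 of the 23 were near more than 1 member, so the 10 genes stand for 5 separate loci. Regions open only in Alb-D2KO liver were near none of the 10 genes, against 1.02% of coding genes, and the closest lay 928 kb from Apoa1. An RCA overlapped the gene itself in 8 members (15.8% of coding genes) and lay within 200 bp of an annotated start site of the member in 7 (6.0% of coding genes), a count that fell to 4 with a summit q of 0.001 or less. The 7 were Apoa1, Apoa2, Apoa4, Apoa5, Apoc3, Apob and Apoh, and the 3 without one were Apoc1, Apoc2 and Apoe, the neighbours on chromosome 7.

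**Figure D1:**
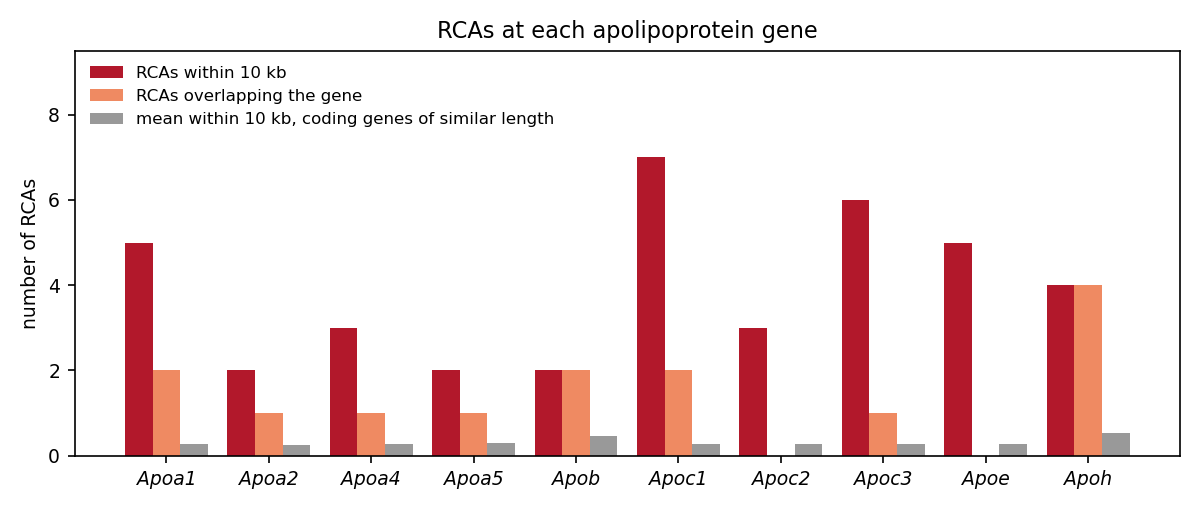
Number of RCAs (vertical axis) at each apolipoprotein gene (horizontal axis), within 10 kb and overlapping the gene. Beside them stands the mean number within 10 kb for coding genes of similar length, the members left out. Counts within 10 kb run from 2 to 7, while the means for genes of similar length run from 0.241 to 0.541.

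Stretches of the RCAs on which the description turns are given here so that the regions can be recognised. Each is the stretch of bases nearest the summit that holds no exon of a coding gene, in the mm10 build. Letters were read from the RefSeq copy of the assembly (GRCm38.p6), 5′ to 3′ on the strand of the gene. Capitals mark exact matches, on either strand, to the C/EBP, FOXA and TATA box motifs or to the AGGTCA element that nuclear receptors bind, all spelled out with the motif counts.
Apoa1, RCA at the start (chr9:46228419-46228579, plus strand): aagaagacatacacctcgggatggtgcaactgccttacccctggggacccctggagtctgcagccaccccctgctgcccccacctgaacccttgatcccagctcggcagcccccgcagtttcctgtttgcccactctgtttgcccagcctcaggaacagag
Apoa1, RCA at the 3′ end (chr9:46230470-46230630, plus strand): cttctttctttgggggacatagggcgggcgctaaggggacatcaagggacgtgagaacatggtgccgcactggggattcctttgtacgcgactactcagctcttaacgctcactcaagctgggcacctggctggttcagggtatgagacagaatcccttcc
Apoc3, RCA at the start (chr9:46235637-46235797, minus strand): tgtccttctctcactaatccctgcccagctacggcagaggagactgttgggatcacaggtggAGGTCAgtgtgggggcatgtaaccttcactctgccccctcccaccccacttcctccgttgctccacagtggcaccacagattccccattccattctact
Apoa5, RCA at the start (chr9:46268447-46268607, plus strand): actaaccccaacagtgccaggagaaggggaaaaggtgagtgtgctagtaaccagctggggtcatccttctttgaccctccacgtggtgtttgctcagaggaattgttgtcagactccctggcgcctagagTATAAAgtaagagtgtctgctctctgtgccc
Apoe and Apoc1, summit of the RCA between them (chr7:19694452-19694612, minus strand): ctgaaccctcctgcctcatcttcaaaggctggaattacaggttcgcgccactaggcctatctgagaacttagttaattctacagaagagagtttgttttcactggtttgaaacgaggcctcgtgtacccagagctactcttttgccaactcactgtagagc
Apoa2, RCA at the start (chr1:171224893-171225053, plus strand): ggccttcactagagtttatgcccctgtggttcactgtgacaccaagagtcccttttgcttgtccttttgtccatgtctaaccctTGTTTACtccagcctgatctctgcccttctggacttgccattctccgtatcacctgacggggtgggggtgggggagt
Apob, RCA at the start (chr12:7977498-7977628, plus strand): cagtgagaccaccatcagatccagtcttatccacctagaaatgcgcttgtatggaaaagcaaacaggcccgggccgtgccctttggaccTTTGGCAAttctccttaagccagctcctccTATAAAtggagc
Apoh, RCA at the RefSeq start (chr11:108395132-108395292, plus strand): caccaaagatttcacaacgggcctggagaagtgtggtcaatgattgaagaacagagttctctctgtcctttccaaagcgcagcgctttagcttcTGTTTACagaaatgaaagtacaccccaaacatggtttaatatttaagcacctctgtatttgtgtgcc

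Apoa1, whose protein activates the enzyme that esterifies cholesterol on high-density lipoprotein, lies on chromosome 9 from 46228580 to 46230466 on the plus strand. It had 5 RCAs within 10 kb, and the largest number among 649 other coding genes of similar length was 4. Here and below, genes of similar length leave out all 10 members. The RCA with the largest area of all 23, 1253, spanned 1440 bp from 46229732 to 46231171, over the last coding exon, the 3′ UTR and the sequence just downstream. It ranked 7 among the 8031 RCAs by area, and its summit had a −log10 q of 4.06. A separate RCA from 46228341 to 46229068 covered the start site, 5′ UTR and part of the coding sequence of Apoa1, with an area of 429. Upstream, 2 more lay between Sik3 and Apoa1 or at the end of Sik3, a kinase gene, with areas of 346 and 248.

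Apoc3, the inhibitor of lipoprotein lipase, is read from the opposite strand (46232933 to 46235636) and had 6 RCAs within 10 kb. None of 977 non-member genes of similar length had more than 5. Of the 6 RCAs near Apoc3, 5 were also near Apoa1 and the sixth was the RCA at the Apoa4 start. The RCA at the Apoc3 start, from 46235086 to 46235939, had an area of 643, and 1.53% of the RCAs had a larger one. Its summit lay at −74 bp from an annotated Apoc3 start, negative values being upstream. AGGTCA stood at 46235315 and 46235379 in the 300 bases around that summit, and the printed stretch, farther upstream, holds another.

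Apoa4, a protein of intestinal and hepatic particles, runs from 46240696 to 46243459 and had 3 RCAs within 10 kb, a number reached by 1.80% of 998 genes of similar length. The RCA at its start (46240586 to 46241447, 862 bp) had an area of 344, close to that of the Apoa1 upstream RCA and below those of Apoa1 and Apoc3. Between Apoa4 and Apoa5, 4 RCAs stood within 3.46 kb of sequence that holds no coding gene, from 46255970 to 46259425, with areas from 293 to 386. Of these 4, only the last is within 10 kb of a member, 9208 bp from Apoa5, while the next one out is 10742 bp away (area 307). These are the regions just inside and just outside the distance used.

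Apoa5, which speeds the removal of triglyceride from plasma, runs from 46268633 to 46271919. Its start was covered by an RCA from 46268160 to 46268805 with an area of 738, rank 54 of 8031, and a summit at −107 bp from the start (−log10 q 3.86). A TATAAA match stood at 46268577 in that region. With 2 RCAs within 10 kb, Apoa5 was less crowded than its neighbours, and 5.84% of 1215 genes of similar length had as many.

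**Figure D2:**
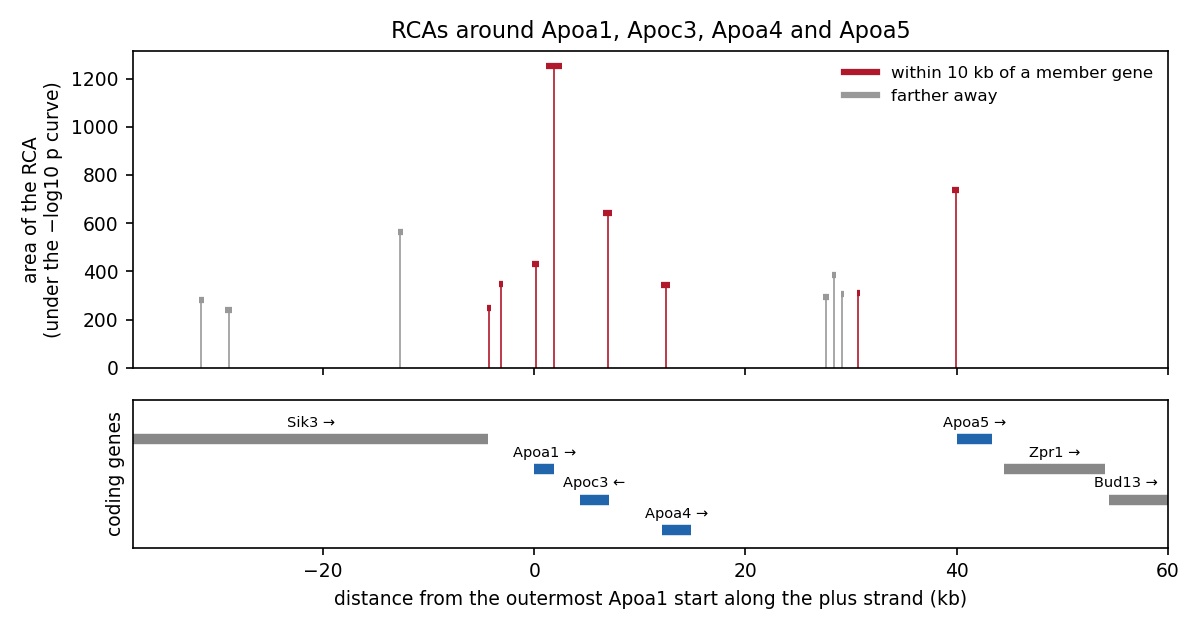
RCAs (upper panel, height is the area from the −log10 p curve, width is drawn to scale) and coding genes (lower panel, arrows give the strand, members in blue) by distance from the outermost Apoa1 start, in kb. The tallest region, with an area of 1253, sits at the end of Apoa1, and each of the 4 member genes has an RCA at its start.

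Read as a whole, the stretch from the start of Apoa1 to the end of Apoa5 spans 43.3 kb and overlapped 9 RCAs, which covered 14.1% of its bases with a summed area of 4705. That is 20.8 RCAs per 100 kb, against 0.304 per 100 kb over chromosomes 1 to 19 and X. Among windows of the same length centred on each of 21728 coding genes, only the window centred on Apoa4 itself held 9 or more, and the mean was 0.349. Within each genotype the called regions carry running numbers in genome order, and a number missing from the list was read as a control region that overlapped an Alb-D2KO region. By these numbers 35.9% of at least 22368 control regions were listed as RCAs, and the Alb-D2KO call reached at least 14825 regions. On chromosome 9 the numbers ran without a gap through 17 RCAs, from 46086928 inside Sik3 to the Apoa5 start at 46268805. It was the longest such run among 4669 in the list. Read this way, no control region in these 182 kb was kept, and no region of any kind was called there in the pooled Alb-D2KO libraries. After the Apoa5 start, the next 8 control regions were kept, and the next RCA began at 47624643.

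None of the 3 member genes on chromosome 7 had an RCA at its start. Apoc1, an inhibitor of lipoprotein uptake and lipolysis, lies from 19689481 to 19692660 on the minus strand and had 7 RCAs within 10 kb, the most of any member. Only 33 of the 21728 coding genes (0.152%) had as many, and none of 1172 non-member genes of similar length had more than 5. An intronic RCA (19691339 to 19691827) had an area of 279.8, and one over an intron and coding exon (19691966 to 19692249) had 254. Neither reached within 200 bp of a start of Apoc1: the summit of the closer one lay 422 bp downstream of the nearest annotated start, at 19692491. The caller numbers of that RCA and of the next, from 19693084, were consecutive. By these numbers no control region was called over the annotated Apoc1 starts.

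Apoe runs from 19696109 to 19699188 on the minus strand, with its start facing away from Apoc1, and no RCA overlapped it. The nearest, 354 bp beyond its 3′ end, was the largest of the 7 near the chromosome 7 members, with 1437 bp from 19694319 to 19695755 and an area of 823, rank 26 of 8031. In the gap between Apoe and Apoc1 it was joined by a second RCA (19693084 to 19693796), 424 bp from Apoc1, with an area of 410. Apoe had 5 RCAs within 10 kb, and 0.088% of 1136 genes of similar length had as many. Beyond the large RCA the next 3 control regions were kept, somewhere between 19695755 and 19747551, a stretch that holds the starts of Apoe and Tomm40. Their positions are not given in the list, so it cannot be read whether the Apoe start was open in both genotypes or in neither.

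Apoc2, the activator of lipoprotein lipase, lies from 19671579 to 19677941 on the minus strand. No RCA overlapped it, and the nearest began 3242 bp upstream of it, from 19681183 to 19681624, with an area of 451. That region covered the start of Apoc4, another apolipoprotein gene, and of Gm44805, a gene model that spans Apoc4 and Apoc2. The other 2 within 10 kb lay between Apoc4 and Apoc1 (areas 409.5 and 200.4), and the lower value stands at the smallest area the list allows. On this side too, 3 control regions were kept, between 19619302 and 19681183, a stretch that holds Apoc2.

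**Figure D3:**
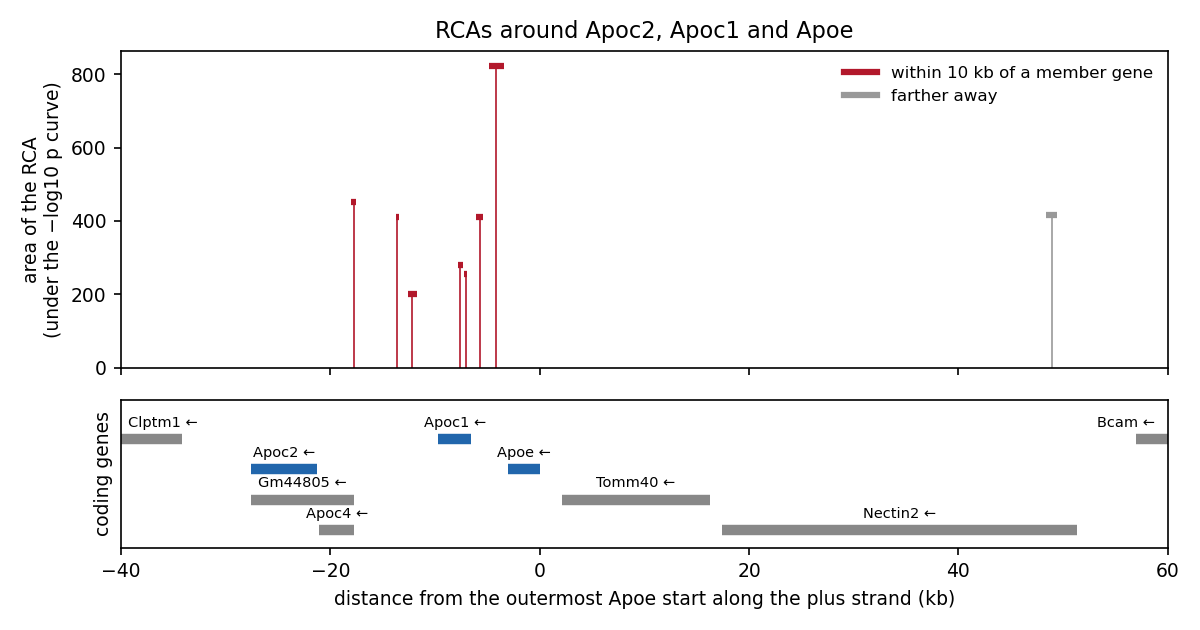
RCAs (upper panel, height is the area from the −log10 p curve, width is drawn to scale) and coding genes (lower panel, members in blue) by distance from the outermost Apoe start, in kb. The 7 RCAs near the members all lie between the Apoc4 start and the end of Apoe, with the tallest, 823, next to Apoe, and no RCA covers the starts of Apoe, Apoc1 or Apoc2.

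From the end of Apoc2 to the start of Apoe the locus spans 27.6 kb, with 7 RCAs that covered 16.5% of it and a summed area of 2828. That is 25.4 RCAs per 100 kb. Windows of this length with as many were those centred on Apoa1, Apoc1 and Tsku, 3 of 21728, and the mean was 0.228. The 7 RCAs carried 7 consecutive caller numbers over 14.6 kb, so that every control region called there was lost, and 50 of 4669 runs in the list were as long. Tsku was named here after its value was seen.

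Apoa2, the next most abundant protein of high-density lipoprotein, lies on chromosome 1 from 171225054 to 171226379. An RCA from 171224855 to 171225271 covered its start and overlapped its 5′ UTR, with an area of 485, and 6.56% of the list had a larger one. The other RCA within 10 kb was in an intron of Fcer1g, an immunoglobulin receptor gene, with an area of 209. Between these and the next RCA upstream, 3 control regions were kept, and that stretch holds Nr1i3 and Tomm40l. The next RCA outward lay 11868 bp from Apoa2 (area 252).

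Apob, the structural protein of very-low-density lipoprotein, had the lowest summed area of the members, 461. It lies on chromosome 12 from 7977648 to 8016835, and its start was covered by an RCA from 7977498 to 7977803 with an area of 259, below the median of 278 for the whole list. A TATAAA match lay at 7977617 and a C/EBP match at 7977587. A second, intronic RCA from 7978459 to 7978768 had an area of 202. Among 2292 genes of similar length, 29.5% had an RCA within 10 kb and 9.95% had 2 or more. Both belonged to a run of 6 consecutive caller numbers that spread over 296 kb, from 7909885 to 8206129, a span with no kept control region. With an area of at least 300 asked for, neither Apob nor Apoh had an RCA, and with a q of 0.001 or less Apob had none.

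Apoh, which encodes the phospholipid-binding β2-glycoprotein I, is annotated in GENCODE from 108343354 to 108414396 on chromosome 11, because some transcripts start far upstream. RefSeq places the gene from 108395297 to 108414396. The RCA at the RefSeq start, from 108395011 to 108395380, had an area of 262 and its summit at −89 bp from an annotated start, beside a TGTTTAC match at 108395226. The RCA at the outermost GENCODE start (108342876 to 108343429, area 283) also overlapped Prkca, a protein kinase gene read from the other strand, so it belongs to both. The other 2 lay in introns of the long transcripts, with areas of 222 and 238. One number was missing among the 5 caller numbers of this locus, a control region that was kept.

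Across the 23 RCAs the areas ran from 200.4 to 1253 with a median of 311 (quartiles 251 and 440), beside a median of 278 (quartiles 232 and 351) for all 8031 RCAs. An area of 400 or more was reached by 9 of the 23 (39.1%), against 15.9% of the list, and one of 600 or more by 4 (17.4%), against 2.22%. Those 4 were the RCAs at the end of Apoa1, between Apoe and Apoc1, and at the starts of Apoa5 and Apoc3. Those of 400 or more all lay on chromosomes 9 and 7, except that at the Apoa2 start (485). At Apob and Apoh the areas ran from 202 to 283. The median width of the 23 was 417 bp, beside 326 bp in the list, whereas the median summit −log10 q was 3.01 beside 3.14. The median area near these genes was thus above that of the list and the median summit −log10 q below it. At the starts of members, the 8 RCAs had a median area of 387, beside 304 for all 1560 promoter RCAs.

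**Figure D4:**
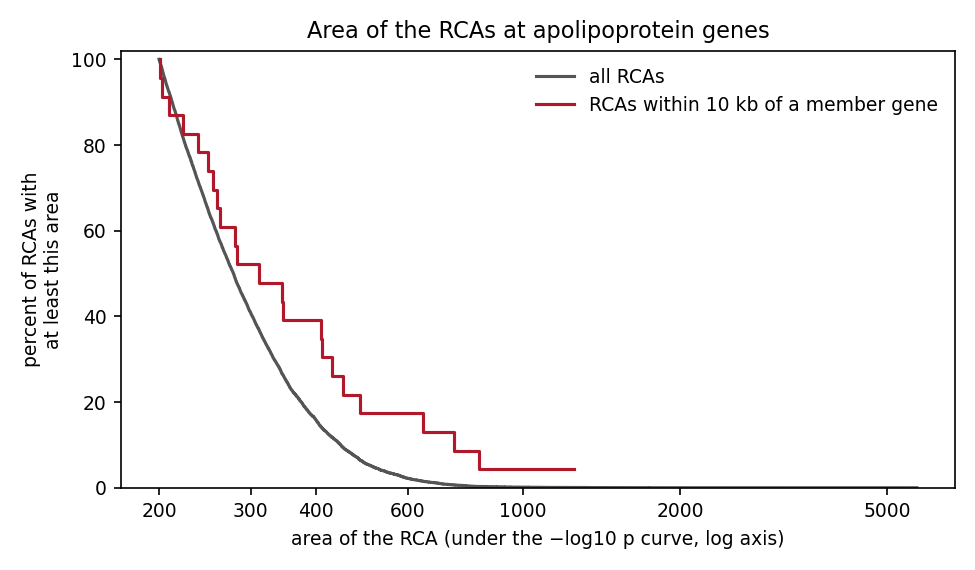
Percent of RCAs (vertical axis) with at least the area on the horizontal log axis, for all 8031 RCAs and for the 23 within 10 kb of an apolipoprotein gene. At an area of 400 the curves stand at 15.9% and 39.1%.

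By position, 9 of the 23 were promoter RCAs, meaning within 200 bp of any annotated start, 3 were exonic, 5 intronic and 6 intergenic. Promoter RCAs thus made up 39.1% of them and 19.4% of the list, and intronic ones 21.7% and 40.0%. The 23 were taken within 10 kb of genes with a median length of 3.13 kb, beside 17429 bp for all coding genes. This choice of regions bears on the shares, and how far was not tested.

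In the 300 bases around the summit, AGGTCA was found in 7 of the 23 RCAs (30.4%) and in 2409 of the 8019 RCAs of chromosomes 1 to 19 and X. The C/EBP motif, TTGCNNAA, was in 4 (17.4%, list 18.4%). The FOXA motif, with the letters TGTTTAC, was in 2 (8.70%, list 6.66%). TATAAA, added after the sequences were seen, was in 5 (21.7%, list 9.14%). Matches to an HNF4 motif (CAAAGTCCA), to an HNF1 motif of 12 letters and to AGGTCA repeated with 4 free bases between the copies, the arrangement that thyroid hormone receptors bind, were in none of the 23. In the list they were in 2.62%, 0.287% and 0.0249% respectively. These are exact matches on both strands, AGGTCA being part of the repeat, and they show letters, not bound factors. The 300 bases can reach past the edge of a narrow RCA. The TATAAA match at the Apoa2 start and the C/EBP match of the RCA in Fcer1g lie outside their RCAs. Promoter RCAs made up 39.1% of the 23 and 19.4% of the list, and how far this bears on the TATAAA shares was not tested.

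Coding genes of similar length, other than the members, gave the background for each member. The share with an RCA within 10 kb ran from 17.3% for the length of Apoa2 to 31.1% for that of Apoh, with a mean of 21.3% over the 10 lengths. The members had a mean of 3.9 RCAs and their length-matched genes 0.319. In these means an RCA near several genes counts for each, so the members' value rests on 39 pairs from 23 distinct RCAs. Expression was not measured in these libraries, so genes known for activity in hepatocytes were counted as well. Among 12 genes of carrier proteins of plasma, such as Alb and Rbp4, 8 had an RCA within 10 kb and the mean was 1.58 RCAs. Among 10 hepatocyte marker genes 8 did, with a mean of 2.1. Alb and Ttr, each with an RCA, are in both lists. The markers of Kupffer cells, endothelial cells, stellate cells and cholangiocytes were 20 genes in all, and 3 had an RCA. These were Stab2 and Pecam1 of 5 endothelial markers (areas 207 and 278) and Sox9 of 5 cholangiocyte markers (206). Over all coding genes the share with an RCA within 10 kb was 25.2% and the mean 0.414 RCAs. How far the mix of cells bears on the counts was not tested.

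Other genes of lipoprotein metabolism were counted in the same way, beside the 25.2% of all coding genes. Of 11 other apolipoprotein genes 7 had one, of 19 genes for assembly and remodelling 11, and of 15 genes for receptors and export 9. The last 2 lists hold longer genes, with median lengths of 25.857 and 37.748 kb beside 17429 bp for all coding genes. They were not matched for length. The 7 include Apoc4 of the chromosome 7 cluster, whose largest RCA (area 451) is also near Apoc1 and Apoc2. They also include Saa1 and Saa2, which have the same largest area (341). Among the 9, Abcg5 and Abcg8 likewise have the same largest area (280). None of the genes in these lists had a region open only in Alb-D2KO liver within 10 kb, a count near the 1.02% of all coding genes. Apof had an RCA of area 662 at its start. Clu, the gene of clusterin, had 3 RCAs, the largest (503) in an intron and another 1 at its own start. The RCA near Apom (area 569) was 2337 bp outside that gene and at the start of another, and that near Saa4 (386) was intergenic, 8079 bp away.

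Among the 19 assembly and remodelling genes, 5 had an RCA at their own start, beside 6.0% of all coding genes. Angptl4, an inhibitor of lipoprotein lipase, had an RCA of area 899 at its start, larger than at any member start. Mttp, whose product loads lipid onto Apob, had an RCA of area 474 at its start, and Sar1b, needed for export of large particles from the endoplasmic reticulum, one of 472. Lcat, the enzyme activated by Apoa1, had an exonic RCA of area 455. Mia2 had 4 RCAs within 10 kb, 2 of them at its own start, and the largest (423) was intergenic, 3572 bp from the gene. None of the 15 receptor and export genes had an RCA within 200 bp of its own start, a count near the 6.0% of all coding genes. The RCAs of Abca1, which loads cholesterol onto Apoa1, Sdc1, Scarb1 and Lrp1 were intronic (areas 698, 562, 495 and 353 for the largest of each).

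**Figure D5:**
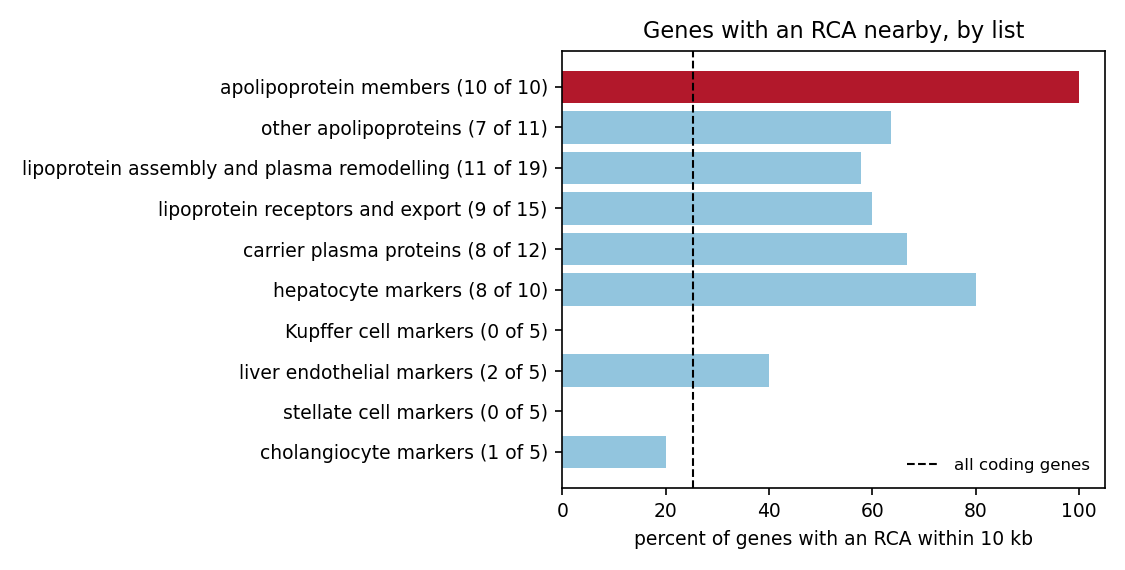
Percent of the genes of each list (horizontal axis) with an RCA within 10 kb, with the counts beside each name and a dashed line at 25.2% for all coding genes. The bar of the 10 apolipoprotein genes reaches 10 of 10, and that of the hepatocyte markers 8 of 10. Endothelial markers stand at 2 of 5, cholangiocyte markers at 1 of 5, and Kupffer cell and stellate cell markers at 0 of 5 each.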

How the data were processed

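The series holds 4 control and 4 Alb-D2KO ATAC-seq libraries of adult mouse liver, grouped by the genotype in the labels. The authors removed adapters with NGmerge, aligned reads to mm10 with BWA 0.7.17, kept primary, non-chimeric alignments of MAPQ 30 or more without duplicates, and called regions with Genrich 0.6 at a q of 0.05 on grouped libraries, leaving out regions seen in single-library calls. Overlap subtraction then left the regions of one genotype only. The signal in the deposited lists is the area, read from the layout as a sum from the −log10 p curve. The deposited −log10 q is that of the summit, whose place is given as an offset. The deposited score, 1000 times the area per base with a ceiling, was not used. Depth per library is unknown. A weak region can be missing from one genotype because it fell under the caller's smallest area, so an RCA is a difference between pooled calls.

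Regions were matched to GENCODE M21 genes (mm10) with pandas 2.3.3 by the distance between edges, and classed as promoter (within 200 bp of a start), exon, intron or intergenic in that order. Sequences were read with pysam 0.24.0. The matching was tested on simulated data. The members and gene lists were chosen with earlier results of these data known. The genes named are the 10 members, the genes that hold or adjoin their RCAs, genes with an RCA in the chromosome 9 and 7 clusters extended by 50 kb, and up to 5 genes with the largest areas in each related list, of which some are not reported here. Other genes were named after their values were seen. The authors annotated with a different GENCODE release. Alternatives were other distances, start windows and length ratios, an area of 300 or more, a q of 0.001 or less, a width of 200 bp or more, merging within 100 bp, region midpoints, autosomes only and, added after seeing the data, RefSeq gene bodies.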

Additional observations from a re-analysis of the deposited data

How the results depend on the processing

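The count of members with an RCA within 10 kb was 8 to 10 under its 9 alternatives, and that of members with an Alb-D2KO-only region 0 under all 9. With an area of at least 300, Apob and Apoh no longer had an RCA, and with a q of 0.001 or less Apob did not. The 23 RCAs became 14 for the gene body alone, 12 with an area of at least 300 and 12 with a q of 0.001 or less, and their median area (311) became 440 and 430 under those last alternatives. With a q of 0.001 or less, 4 members in place of 7 kept an RCA at their own start. The share of length-matched genes with an RCA (21.3%) was 9.51% for the body alone, 16.3% within 5 kb, 28.0% within 20 kb, 11% with an area of at least 300, 16.8% with a q of 0.001 or less, 18.7% with a width of 200 bp or more, 20.4% for genes within 2 times the length and 22.2% for autosomes only. These alternatives change the regions or genes counted by construction. No paired analysis was possible because each genotype was called on pooled libraries, and for the same reason no library could be left out.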
